A study of Zea mays with 40 samples.

Results

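T209 is a maize inbred line and one of the parents of the recombinant inbred population of the study. The labels do not say which of the parental names it carries. Its kernels were sequenced at 5 times, given in days after pollination (DAP) and spaced 10 days apart from 10 to 50 DAP, and the change from early to late filling is described here. The 4 libraries at 10 and 20 DAP (early filling) were compared with the 4 libraries at 40 and 50 DAP (late filling), which makes 8 of the 40 libraries of the series. The 2 libraries at 30 DAP were left out of the fits behind the results given here (an alternative fit held all 40 libraries). They served to place each change between early and late filling and, for the heat shock proteins, for a count at 30 DAP. The remaining 30 libraries came from the inbred lines T147, T191 and T210, sampled at the same 5 times. T210 is the other parent. T147 and T191 (YZU147 and YZU191 in the study) are recombinant inbred lines from the cross of the parents, so they are relatives of T209. By their labels, the groups of each line differ in time alone. The 2 libraries of a line and time are from seeds of the middle of 2 similar ears. Each time has its own ears, so conditions at sampling cannot be told apart from time.

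The maize kernel consists of a large starchy endosperm, an embryo and maternal outer tissue. During filling, the starchy endosperm makes starch from imported sucrose and packs zeins, the storage proteins, into bodies of the endoplasmic reticulum, while the transfer layer at its base takes up sugars and amino acids from the mother plant. Late in development the endosperm cells die except for the aleurone, and the embryo stores oil and acquires tolerance to drying.

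Expression was measured as FPKM, the reads of a gene relative to its length and to all mapped reads. The FPKM of the 8 libraries summed to between 556153 and 643072. The number of reads was not given. Depth relative to the median library of T209, read from the steps between low values, was 0.988 to 1.12 in the early and 0.859 to 1.02 in the late libraries of T209, and 0.934 and 2.19 at 30 DAP. Between 22106 and 24457 genes reached 1 FPKM in the early libraries and between 22545 and 25831 in the late ones. Spearman's rho between the 2 ears of the same time, across genes, ranged from 0.815 to 0.949. P-values measure the spread among the sampled ears, and since 2 times form each phase, changes between 10 and 20 DAP or between 40 and 50 DAP count as spread.

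The sums of marker genes of the kernel compartments moved with the phases. Each sum follows its highest members, so a single marker can differ from it. Among the embryo markers, glb1 did not pass the test between the phases described below. The summed FPKM of 17 distinct starchy endosperm markers was 56972 to 81314 in early filling, 7342 to 12077 at 30 DAP and 10.9 to 148.8 in late filling. The 4 transfer layer markers summed to 46.5 to 835 early, 13.8 to 16.9 at 30 DAP and 0.0311 to 2.19 late. The 6 embryo markers (oleosins, vp1 and glb1) took the opposite course, with 1504 to 20342 early, 45962 to 46314 at 30 DAP and 27096 to 42503 late. Markers of the embryo-surrounding region were low throughout, between 0 and 3.22 early and up to 0.0808 late, and both were at 0 at 30 DAP. The 2 aleurone markers summed to 31.5 to 71.0 early and 10.6 to 29.1 late, and 13 chlorophyll-binding and photosystem genes to 0.726 to 3.44 early and 3.71 to 11.3 late. In whole kernels, fewer cells of a type and less RNA per cell cannot be told apart, which applies to every change below.

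**Figure D1:**
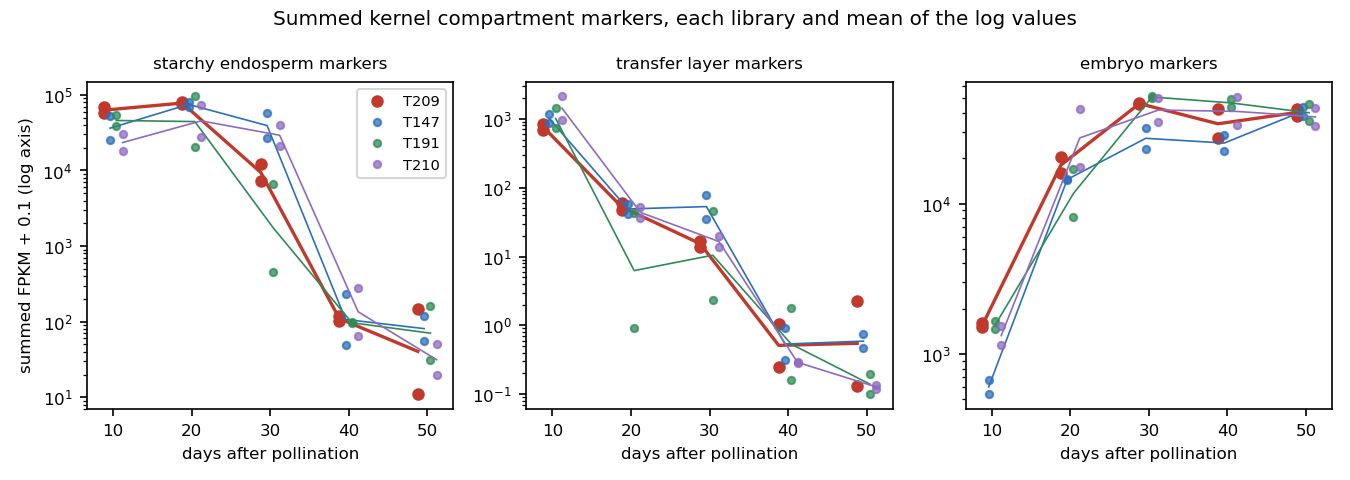
Summed FPKM (plus 0.1, log axis) of the starchy endosperm, transfer layer and embryo markers against days after pollination in the 4 lines, with a point for each ear. In T209 the starchy endosperm sum was between 7342 and 12077 at 30 DAP, when the same sum was 458 to 6554 in T191, 26845 to 57369 in T147 and 21272 to 40174 in T210.

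The test covered 31027 genes that reached 1 FPKM in 2 or more of the 8 libraries, of which 7227 (23.3%) were higher in early filling and 9197 (29.6%) were lower, at an adjusted p under 0.05 (limma on log2(FPKM + 1), two-sided, Benjamini-Hochberg over all genes tested). Differences are given as early minus late on the log2(FPKM + 1) scale, which understates the change of low genes, so a positive value means higher in early filling. The early and late libraries did not overlap in 6656 genes (21.5%) that were higher early and in 8911 (28.7%) that were lower. Differences of at least 1 were found for 5566 genes higher early and 6673 lower, and differences of at least 5 for 227 and 73 genes. The strongest changes were therefore mostly losses during filling, although more genes gained. The median difference over all genes tested was -0.13. Rescaling the libraries by the median ratio moved it by 0.118, to -0.01, and changed the split to 8587 genes higher and 8389 lower, so the share of calls that were higher early went from 44% to 50.6%. Values below are on the deposited scale, and the counts given for each gene list stand beside these shares of 23.3% higher and 29.6% lower over all genes tested.

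The zeins were higher in early filling in nearly every row. The table held 19 rows of alpha zeins, which shared 7 distinct expression profiles because near-identical genes received identical values, and all 19 rows and 7 profiles were higher early, with a median difference of 8.82 (range 7.70 to 10.21). The beta zein bz15 (GRMZM2G086294) had 34658 and 29058 FPKM at 10 DAP and 38674 and 39999.8 at 20 DAP, against 44.6 and 29.2 at 40 DAP and 2.72 and 50.8 at 50 DAP. Every early library was above every late one, and the difference of 10.60 (SE 0.76, adjusted p = 4.7e-06) was the largest of the named genes. The ears at 30 DAP had 3819 and 6593 FPKM, which is nearer to late filling in FPKM but nearer to early filling on the log2 scale. The alpha zein z1C2 (GRMZM2G397687) had 6507 to 12674 FPKM early and 0.296 to 13.7 late (difference 10.21, SE 0.70, adjusted p = 3.6e-06). The gamma zein gz16 (GRMZM2G060429) had 8710.0 to 13488 FPKM early and 0.385 to 21.8 late, with the same difference of 10.21 (SE 0.77, adjusted p = 6.48e-06). The delta zein dzs18 (GRMZM2G100018) had 1653, 2228, 1802 and 1408 FPKM early and 1.49, 1.70, 0.0477 and 1.93 late (difference 9.68, SE 0.35, adjusted p = 8.75e-08). The alpha zeins z1B_8 (GRMZM2G025763) and z1A2_3 (GRMZM2G026939) differed by 9.50 (SE 0.33) and 9.07 (SE 0.51), and the gamma zein gz50 (GRMZM2G138689) by 8.83 (SE 0.66).

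In all these zeins the library of 50 DAP replicate 1 had the lowest late value. This held for 141 (62.1%) of the 227 genes that were higher early by at least 5, whose median in this library was 0.0817 FPKM against 0.318 to 0.686 in the other late libraries. Without 50 DAP, all 19 rows of alpha zeins were still called higher early.

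The row of gz27 (GRMZM2G138727), also a gamma zein, did not follow the others. In T209 it had 6.71, 1.27, 1.01 and 0.744 FPKM in early filling and 12.3, 21.1, 1.70 and 24.2 in late filling, with overlap between the phases. The difference of -2.09 (SE 0.71, adjusted p = 0.0303) missed the threshold in 6 of the 8 fits without a single library of T209, all but those without 10 DAP replicate 1 or 50 DAP replicate 1. Its ears at 30 DAP disagreed, with 542 and 4.47 FPKM. In T210 the same row had 4265 to 11790.4 FPKM early and 2.91 to 49.9 late, whereas T147 and T191 had 0.289 to 11.3 and 0.784 to 12.3 early. The table holds loci assembled from the reads beside named genes, and whether reads of this gene were assigned to another row in some libraries was not tested.

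**Figure D2:**
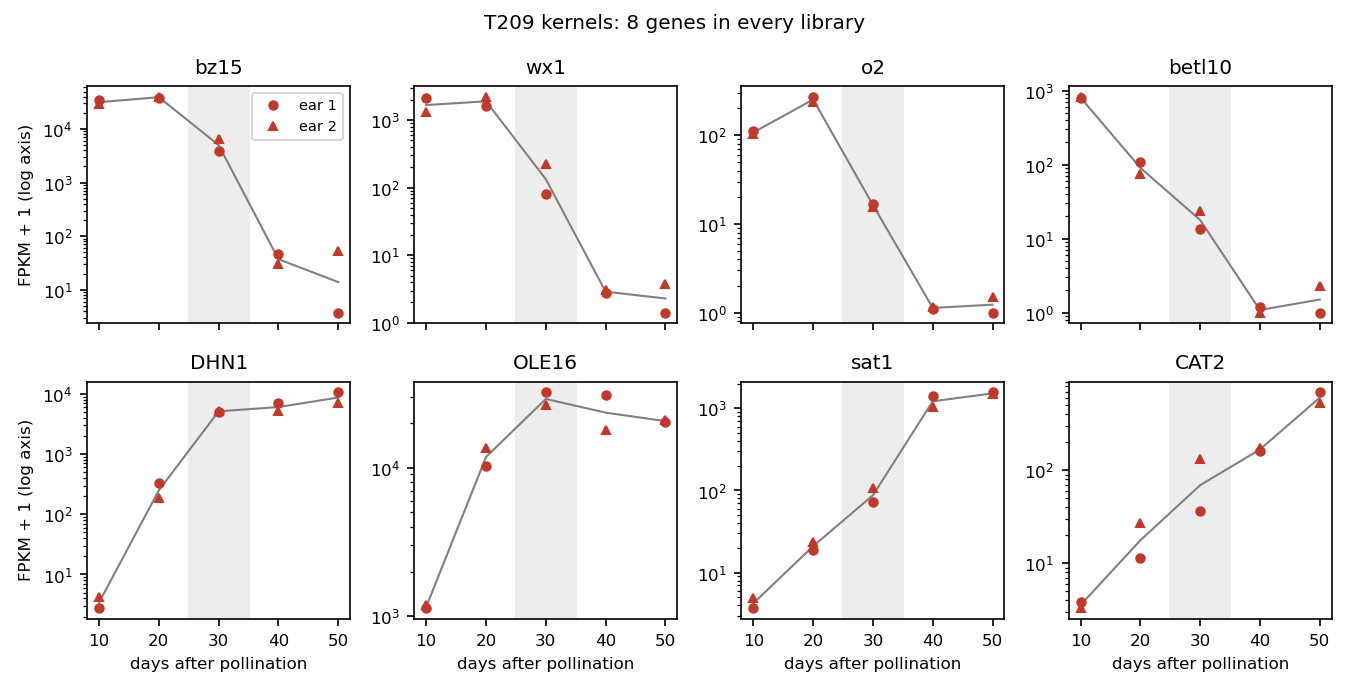
FPKM (plus 1, log axis) of bz15, wx1, o2, betl10, DHN1, OLE16, sat1 and CAT2 in T209 against days after pollination, with a point for each of the 2 ears, a line through the mean of the logs and 30 DAP shaded. The first 4 genes had at most 50.8 FPKM in late filling, and the last 4 were higher in every late library than in every early one.

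The starch genes of the endosperm fell with the zeins. Of 18 starch genes tested, 14 were higher early, 1 was lower and 3 did not pass the test, with a median difference of 3.06 against -0.13 for all genes. The granule-bound starch synthase wx1 (GRMZM2G024993), which makes amylose, had 2145, 1292, 1622 and 2206 FPKM early, 78.9 and 222 at 30 DAP, and 1.76, 2.01, 0.409 and 2.71 late (difference 9.43, SE 0.34, adjusted p = 8.75e-08). The phases did not overlap, and 30 DAP lay between them. The ADP-glucose transporter bt1 (GRMZM2G144081) had 591 to 1093 FPKM early, 43.6 and 40.3 at 30 DAP and 0.0446 to 1.38 late (difference 9.03, SE 0.31). The subunits of ADP-glucose pyrophosphorylase, the enzyme that makes the substrate of starch synthesis, fell together: sh2 (GRMZM2G429899) by 7.42 (SE 0.34) and bt2 (GRMZM2G068506) by 6.81 (SE 0.33). The early libraries of sh2 had 583, 638, 422 and 320.5 FPKM and the late ones 1.42, 3.80, 0.776 and 1.84. The branching enzyme ae1 (GRMZM2G032628) differed by 7.13 (SE 0.39) and the starch synthase sugary2 (GRMZM2G348551) by 5.65 (SE 0.24).

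Not all starch genes behaved in this way. The debranching enzyme subunit iso2 (GRMZM2G090905) was the member that was lower early, with 5.43, 4.62, 2.68 and 2.84 FPKM early and 6.69, 10.8, 11.7 and 7.41 late (difference -1.06, SE 0.28, adjusted p = 0.00881). Without 50 DAP its adjusted p was 0.0527. GBSSIIa (GRMZM2G008263), a granule-bound starch synthase, had 10.5, 10.5, 15.8 and 7.73 FPKM early and 15.9, 20.0, 12.2 and 12.4 late, with overlapping phases (difference -0.43, SE 0.26, adjusted p = 0.193). The ADP-glucose pyrophosphorylase subunit Agp2 (GRMZM2G106213) had 43.4 to 63.2 FPKM early and 38.3 to 56.8 late (adjusted p = 0.661).

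Of 8 genes for sucrose cleavage and synthesis tested, 4 were higher early, none was lower and 4 did not pass the test. Without 50 DAP, 2 were higher and 2 lower. The sucrose synthase SH-1, which cleaves imported sucrose, had 1260.0, 819.7, 672 and 789.5 FPKM early and 4.83, 9.61, 5.25 and 4.70 late (difference 6.97, SE 0.30, adjusted p = 2.02e-07), and at 30 DAP it was already down to 20.9 and 38.6 FPKM. The cell wall invertase mn1 (GRMZM2G119689), which cleaves sucrose at the base of the endosperm, had 180.4 and 233 FPKM at 10 DAP and 21.4 and 11.1 at 20 DAP. It was at 0.0834 and 0.758 at 30 DAP and at 0 to 0.588 late (difference 5.66, SE 0.85, adjusted p = 0.000431). Its loss was thus largely complete by 30 DAP. The other sucrose synthase named, sus1 (GRMZM2G152908), differed by 2.84 (SE 0.69, adjusted p = 0.00648, and 0.0815 without 50 DAP).

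Among 9 transcription factors of the endosperm, 5 were higher early, 2 were lower and 2 did not pass the test (median difference 1.31). Opaque2 (o2, GRMZM2G015534), a bZIP factor that activates zein genes, had 110.1 and 103 FPKM at 10 DAP, 269.8 and 234 at 20 DAP, 16.0 and 14.7 at 30 DAP, and 0.112, 0.152, 0 and 0.516 late (difference 7.12, SE 0.34, adjusted p = 3.98e-07). Every late library was under 1 FPKM. Its partner PBF, a Dof factor, had 17.1 to 18.5 FPKM early and 0 to 0.206 late (difference 4.08, SE 0.19). Opaque11 (GRMZM2G147685), a bHLH factor, differed by 6.06 (SE 0.22), and Nkd2 (GRMZM5G884137), a zinc finger factor of the aleurone and endosperm, by 3.16 (SE 0.25). The members that were lower early were dof3 (GRMZM2G179069), with 0.616 to 1.25 FPKM early and 2.13 to 3.69 late, and ohp2 (GRMZM2G007063), an Opaque2-related bZIP factor, with 3.69 to 8.24 early and 10.3 to 12.2 late (difference -0.95, SE 0.24, adjusted p = 0.00792). The adjusted p of ohp2 was 0.0607 without 50 DAP and 0.0531 without 10 DAP.

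Genes of the transfer layer and of the embryo-surrounding region were lost early. Of 18 tested, 13 were higher early, none was lower and 5 did not pass (median 3.74). The count ranged from 10 to 17 when single libraries were left out, and it was 7 without 50 DAP. The transfer layer gene betl10 (GRMZM2G091445) had 781 and 822 FPKM at 10 DAP, 107 and 74.5 at 20 DAP, 12.4 and 22.8 at 30 DAP, and 0.181, 0, 0 and 1.26 late (difference 7.72, SE 0.76, adjusted p = 3.18e-05). It fell at each step. The same order was seen for betl-9 (GRMZM2G087413), with a difference of 7.78 (SE 0.65), and BETL1 (GRMZM2G082785), with 6.50 (SE 0.75). MEG1 (GRMZM2G354335), a maternally expressed gene of the transfer layer, had 117 and 129 FPKM at 10 DAP but only 3.49 and 1.80 at 20 DAP, so that its difference of 4.17 had an SE of 1.16 (adjusted p = 0.0125, and 0.082 without 50 DAP). GRMZM2G111306, a gene of the transfer layer list, had 0.328 to 3.44 FPKM early and was listed at 0 in all 4 late libraries. In contrast to MEG1, esr6 (GRMZM2G048353) had 9.32 to 24.0 FPKM early and still 13.5 and 4.84 at 30 DAP (difference 4.01, SE 0.29).

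Wall synthesis fell as well. Of 23 cell wall genes tested, 16 were higher early, 1 was lower and 6 did not pass (median 2.38). The expansin expB6 (GRMZM2G176595), a wall-loosening protein, had 79.9, 99.0, 70.1 and 121 FPKM early and 0.216, 0.069, 0 and 0.154 late (difference 6.37, SE 0.23, adjusted p = 8.75e-08). CslF6-1 (GRMZM2G110145), a synthase of mixed-linkage glucan, had 23.4 to 53.4 FPKM early and 0.0182 to 0.134 late (difference 5.32, SE 0.28). Cellulose synthases were among the members that fell, such as cesa6 (GRMZM2G113137), which differed by 3.28. The exception was xet1 (GRMZM2G026980), a xyloglucan-modifying enzyme, with 4.33, 4.71, 4.96 and 32.6 FPKM early and 236, 52.6, 132 and 123 late (difference -3.77, SE 0.63, adjusted p = 0.000788).

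All 5 genes of fermentation and of pyruvate phosphate dikinase were higher early, with a median of 5.66. PPDK2, a dikinase abundant in endosperm, had 1294 and 1407 FPKM at 10 DAP, 173 and 250.2 at 20 DAP, and 2.69, 1.58, 1.61 and 2.62 late (difference 7.43, SE 0.64, adjusted p = 1.43e-05). The ears at 30 DAP differed, with 4.04 and 87.8 FPKM. The alcohol dehydrogenase ADH2 had 168, 206, 33.7 and 56.3 FPKM early, 19 and 31.3 at 30 DAP and 0.124 to 0.558 late (difference 6.17, SE 0.51), while adh1 (GRMZM2G442658) had 271 to 503 FPKM early and kept 54.7 to 75.6 late (difference 2.54).

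Of 31 cell cycle and replication genes tested, 10 were higher early, 1 was lower and 20 did not pass (median 0.67). The 10 became 4 without either library of 10 DAP, 17 without 20 DAP replicate 1, 6 without 50 DAP, 6 with the stricter filter and 21 with a mean per line and DAP. The ribonucleotide reductase subunit RNRL1 (GRMZM2G304378) had 34.4, 39, 30.8 and 19.1 FPKM early and 1.17, 0.837, 5.58 and 3.16 late (difference 3.25, SE 0.41, adjusted p = 0.000144). Of 17 histones and HMG proteins, 5 were higher early, 2 were lower and 10 did not pass, and 4 were lower without 10 DAP replicate 2, 6 without 10 DAP, and 1 without 40 DAP replicate 1 or 50 DAP replicate 2. The histone his2b2 (GRMZM2G119071) had 109.9 and 126 FPKM at 10 DAP and 0.209 to 1.47 late (difference 4.93, SE 0.59). SSRP1, a histone chaperone subunit, was opposite, with 20.2, 26.7, 30.6 and 20.2 FPKM early and 90.0, 94.7, 51.3 and 69.1 late (difference -1.59, SE 0.27, adjusted p = 0.000864).

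**Figure D3:**
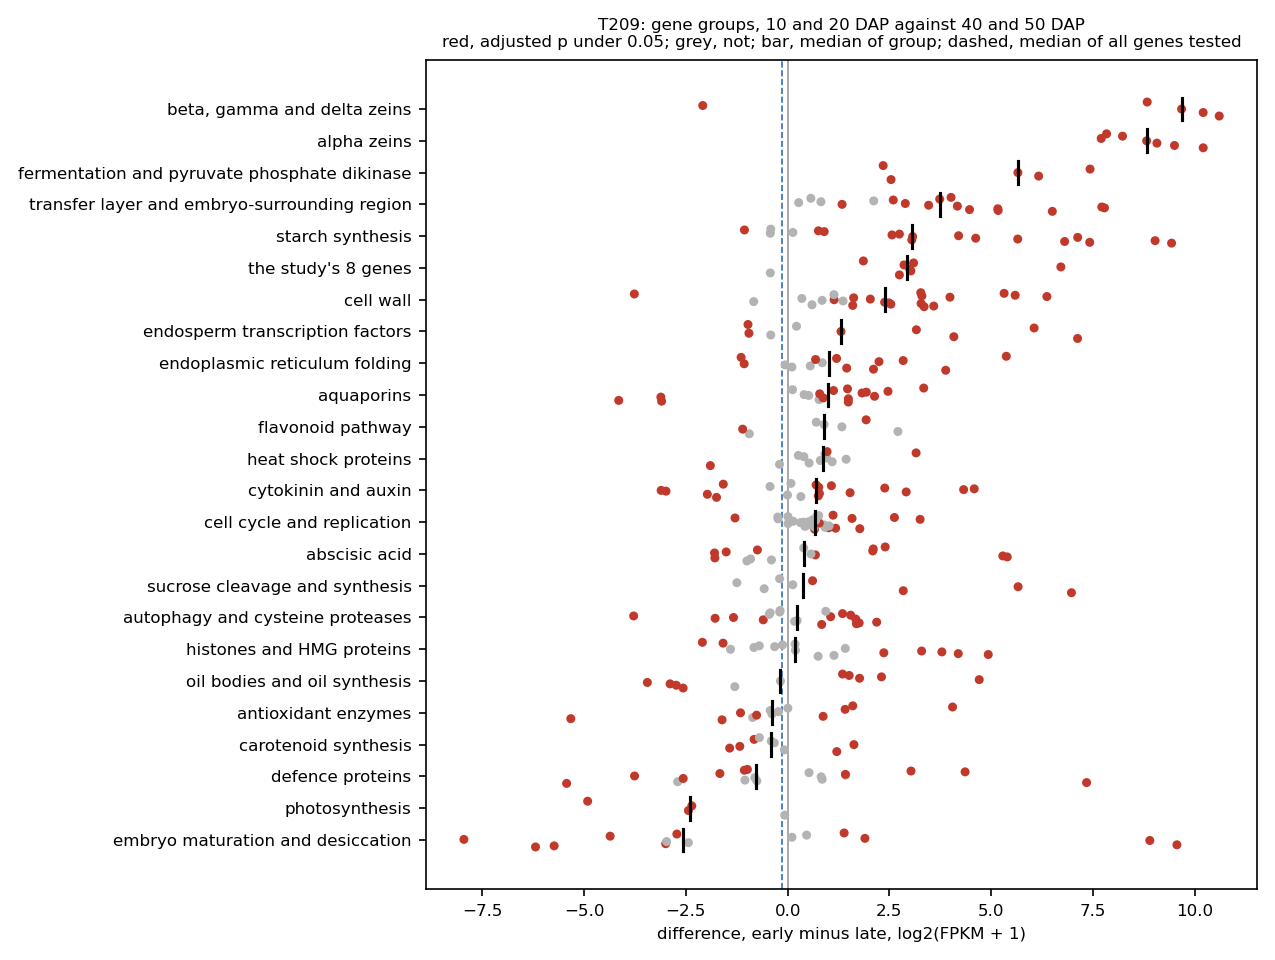
Early minus late difference on the log2(FPKM + 1) scale in T209 for the members of 24 gene lists, with red points for members with an adjusted p under 0.05, grey points for the others, a bar at the median of each list and a dashed line at the median of all genes tested (-0.13). The zeins lie farthest to the side of early filling, with medians of 8.82 and 9.68, and the embryo maturation genes on the late side, with a median of -2.58.

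Genes of embryo maturation and of drying tolerance went both ways. Of 14 tested, 6 were lower early, 4 were higher and 4 did not pass (median -2.58), against 29.6% lower and 23.3% higher over all genes, and without 50 DAP 3 were lower. The dehydrin DHN1, a protein of dehydrating tissue, had 1.74 and 3.26 FPKM at 10 DAP, 336 and 184 at 20 DAP, 5068 and 5197 at 30 DAP, and 6981, 5223, 10584 and 7130.2 late (difference -7.95, SE 1.42, adjusted p = 0.00117). The main rise had thus taken place by 30 DAP. EMB5 (GRMZM2G162659), a late embryogenesis abundant protein, had 0.846 and 1.1 FPKM at 10 DAP, 671 and 189.8 at 20 DAP and 1740.4 to 2097 late (difference -6.20, SE 1.71, adjusted p = 0.0119, and 0.087 without 50 DAP). The galactinol synthase gols2 (GRMZM5G872256), which starts the synthesis of raffinose sugars, had 0.801, 1.39, 17.2 and 6.4 FPKM early and 272, 222, 225 and 341 late (difference -5.74, SE 0.63, adjusted p = 6.32e-05). The regulator Viviparous1 (vp1, GRMZM2G133398) had 6.61 to 22.1 FPKM early, 23.2 and 35.3 at 30 DAP and 88.3 to 131 late (difference -3.0, SE 0.34). The globulins glb1 and glb2 did not pass the test (adjusted p = 0.134 and 0.151).

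The 4 members that were higher early included storage proteins. The legumin leg1 (GRMZM2G174883) had 3367 and 3127 FPKM at 10 DAP, 607 and 581 at 20 DAP and 0.547 to 5.10 late (difference 8.90, SE 0.67, adjusted p = 6.16e-06). The globulin glb3 (GRMZM2G410134) had 2081 to 3208 FPKM early, 454 and 1029.8 at 30 DAP and 0.378 to 4.54 late (difference 9.56, SE 0.42).

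For oil bodies and oil synthesis, 5 of 11 genes tested were higher early, 4 were lower and 2 did not pass (median -0.18), against 23.3% higher and 29.6% lower over all genes. The oleosin OLE16, a coat protein of oil bodies, had 1132 and 1186 FPKM at 10 DAP, 10245 and 13556 at 20 DAP, 32026 and 26152 at 30 DAP, and 30822, 17791, 20130.4 and 20936 late (difference -2.57, SE 0.95, adjusted p = 0.0434). The late libraries were all above the early ones, and 30 DAP was in or above the late range. With the libraries rescaled, the adjusted p of OLE16 was 0.0979, that of the oil body protein OBAP2B (GRMZM2G107570) 0.0699, and 2 genes of the list were lower early. No member was lower early without 50 DAP. A second oleosin gene (GRMZM2G333069) went from 0.0332 and 0 FPKM at 10 DAP to 259 to 536 late (difference -6.05, SE 1.09, adjusted p = 0.00122), with 1403 and 369.7 at 30 DAP. The oleate desaturase fad2 (GRMZM2G064701) fell instead, from 96.4 to 523 FPKM early to 4.32 to 11.1 late (difference 4.71, SE 0.51).

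DHN1, with its difference of -7.95, was not found in the RefSeq gene table by its exact spelling and was left out of the ranking. Among the genes found there with a symbol, sat1 (GRMZM2G069203) came first by size of rise. It had 2.67 and 3.87 FPKM at 10 DAP, 17.6 and 22.6 at 20 DAP, 71.2 and 105 at 30 DAP, and 1417, 1049, 1565 and 1479 late (difference -7.18, SE 0.57, adjusted p = 8.65e-06). In contrast to DHN1, most of this rise in FPKM came after 30 DAP. The AP2-type factor EREB171 (GRMZM2G013657) had 0.592 to 2.14 FPKM early, 24.2 and 18.6 at 30 DAP and 56.1 to 126 late (difference -5.20, SE 0.31, adjusted p = 1.53e-06). The asparagine synthetase asn2 (GRMZM2G093175) had 2.55, 2.74, 30.8 and 36 FPKM early and 286 to 447 late (difference -4.92, SE 0.75). NAR2.2 (GRMZM2G163494), of a family that assists nitrate transporters, had 0.118 to 4.02 FPKM early, 179 and 66.4 at 30 DAP and 74.6 to 109 late (difference -5.52, SE 0.45). Glucanase gene Gns1 (GRMZM2G125032) differed by -5.95 (SE 0.94) and MGL3 by -5.13 (SE 0.69). Of the 73 genes lower early by at least 5, 51 (69.9%) had their lowest value in 10 DAP replicate 1, and their median was 0.605 and 0.968 FPKM at 10 DAP but 10.5 and 6.4 at 20 DAP.

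The remaining genes among the 10 largest losses were GRMZM2G304548 (hag), with 3761, 3178, 2454 and 1414 FPKM early and 0.213 to 5.09 late (difference 9.68, SE 0.49), and GRMZM2G154182 (nac4), with 609 to 1098 early and 0.0216 to 1.18 late (difference 9.18, SE 0.29).

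Of 18 defence proteins tested, 4 were higher early, 6 were lower and 8 did not pass, which is near the shares over all genes (23.3% and 29.6%). PR-5 (GRMZM2G402631), a thaumatin-like protein, had 0.259, 0, 0.926 and 1.08 FPKM early, 279.6 and 87.4 at 30 DAP, 806 and 303 at 40 DAP but only 2.18 and 21.3 at 50 DAP (difference -5.43, SE 1.42, adjusted p = 0.00906). The level thus peaked in mid and late filling and was lower again at 50 DAP. Its adjusted p was 0.0825 without 10 DAP, when 2 genes of the list were lower early. CRIP3, a ribosome-inactivating protein of the endosperm, fell from 319 to 473 FPKM early to 0.476 to 3.66 late (difference 7.34, SE 0.34), although at 30 DAP it was still at 227 and 284.

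Of 13 antioxidant enzymes, 4 were higher early, 4 were lower and 5 did not pass. The catalase CAT2, which breaks down hydrogen peroxide, had 2.86, 2.29, 10.5 and 26.4 FPKM early, 35.3 and 131 at 30 DAP, and 162, 172, 690.1 and 531 late (difference -5.33, SE 0.72, adjusted p = 0.000217). Among 19 genes of autophagy and cysteine proteases, 8 were higher early, 4 were lower (2 without 50 DAP) and 7 did not pass. The vacuolar processing enzyme vpe1 (GRMZM2G463291) had 4.06 and 3.90 FPKM at 10 DAP, 185 and 106 at 20 DAP and 240.4 to 466 late (difference -3.78, SE 1.11, adjusted p = 0.016, and 0.0755 without 50 DAP). Members of autophagy went both ways: Atg8e (GRMZM2G014975), a ubiquitin-like protein of the autophagosome, was higher early by 2.19 (SE 0.31), and atg5 (GRMZM2G098420) was lower by -1.78 (SE 0.23), with 3.70 to 7.49 FPKM early and 17.9 to 21.5 late.

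Aquaporins, the water channels, were mostly higher early, with 11 of 18 tested, 3 lower and 4 not passing (7 were higher without 10 DAP). This list did not hold the aquaporins TIP3-1 and TIP3-2, which were counted with the genes of embryo maturation. The 3 of this list that rose were plasma membrane channels. PIP1-5 had 0.899, 0.786, 0.590 and 0.724 FPKM early, 2.73 and 12.6 at 30 DAP, and 49.7, 10.2, 48.3 and 31.9 late (difference -4.15, SE 0.43, adjusted p = 4.71e-05). PIP2-4 differed by -3.12 (SE 0.38) and PIP1-3 by -3.10.

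In the hormone lists, 10 of 19 cytokinin and auxin genes were higher early, 5 were lower and 4 did not pass, and 6 were higher when either library of 10 DAP, or 50 DAP, was left out. TAR3 (GRMZM2G141810), a tryptophan aminotransferase of auxin synthesis, had 570.4, 486, 286 and 414 FPKM early, 24.6 and 53.5 at 30 DAP and 14.5 to 30.9 late (difference 4.32, SE 0.32, adjusted p = 5.37e-06). The glucosyltransferases of cis-zeatin rose, with differences of -3.0 (SE 0.29) for CISZOG1 and -3.11 (SE 0.56) for CISZOG2. CISZOG1 had 0.337 to 1.14 FPKM early and 8.83 to 19.6 late. Of 15 abscisic acid genes, 6 were higher early, 4 were lower and 5 did not pass. The receptors PYL6 (GRMZM2G141382) and PYL8 (GRMZM2G169695) had 37.1 to 46.1 and 39.5 to 65 FPKM early, and both were under 0.5 FPKM in each late library (differences 5.40, SE 0.19, and 5.29, SE 0.23). The receptor PYL5 (GRMZM2G057959) was opposite, with 1.34 to 3.07 FPKM early and 5.09 to 14.7 late (difference -1.79).

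Of 14 genes of protein folding in the endoplasmic reticulum, 8 were higher early, 2 were lower and 4 did not pass (median 1.03). The chaperone BIPE2 had 160.5, 193, 106 and 84.8 FPKM early, 29.5 and 28.6 at 30 DAP and 4.39 to 14.4 late (difference 3.88, SE 0.37, adjusted p = 2.63e-05). FL1 (GRMZM2G094532), the Floury1 membrane protein of protein bodies, had 71.0 to 196 FPKM early and 1.19 to 2.12 late (difference 5.37, SE 0.32). Of 9 carotenoid genes 2 were higher early and 3 lower, of 7 flavonoid genes 1 and 1, and of 4 photosynthesis genes tested none was higher and 3 were lower. The flavonoid genes higher early were 5 without 20 DAP replicate 1, 4 without 20 DAP replicate 2 and 0 without 10 or 50 DAP, and 2 were lower without 20 DAP replicate 1. The lower carotenoid genes were 1 without 10 or 50 DAP.

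Heat shock proteins stood apart at 30 DAP. Between the phases, 2 of 12 were higher early, 1 was lower and 9 did not pass, and without 10 DAP 4 were higher. The 1 lower member, HSP18, had overlapping phases (difference -1.90, SE 0.71, adjusted p = 0.0453, and 0.0955 with rescaled libraries). At 30 DAP, however, both ears were below all 8 other libraries of T209 in 9 of the 12 genes, against 3.94% of all genes tested. HSP18 had 32.5 to 370.3 FPKM early, 4.55 and 11.2 at 30 DAP, and 185 to 529.9 late. The same count was 5 of 12 in T147, 6 in T191 and 5 in T210, against 2.73%, 3.1% and 1.68% of all genes tested. The member hsp3 (GRMZM6G199466) stayed low after early filling, with 9.14 to 19.1 FPKM early, 0.699 and 0.844 at 30 DAP and 0.411 to 0.645 late (difference 3.16, SE 0.26).

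The study chose 8 genes as candidates for the rate of filling. They differed in expression and allele frequency between pools of recombinant inbred lines, lay in mapped trait regions and belonged to enriched terms or pathways. The paper then followed them in these same lines and times. It described 6 as higher in early filling, while GBSSIIa and GRMZM2G125923 appeared higher in mid filling. In T209, 7 of the 8 were higher early and 1 (GBSSIIa, above) did not pass, with a median difference of 2.93. GRMZM2G043417 had 84.8, 87.0, 129.8 and 189 FPKM early, 7.24 and 13.3 at 30 DAP, and 0.137, 0.132, 0.0373 and 0.160 late (difference 6.71, SE 0.28, adjusted p = 1.93e-07). GRMZM2G391936, a large subunit of ADP-glucose pyrophosphorylase, had 5.81 to 6.10 FPKM early and 0 to 0.0873 late (difference 2.75, SE 0.19). GRMZM5G843748 differed by 3.09 (SE 0.23), GRMZM2G030571 by 3.03 (SE 0.52), GRMZM2G038677 by 3.0 (SE 0.34) and GRMZM2G136106 by 2.86 (SE 0.34). These 6 genes had lost most of their transcript at 30 DAP, with the exception of GRMZM2G030571, which had 2.54 and 9.71 FPKM then against 2.55 to 21.4 early. GRMZM2G125923 was highest at 30 DAP, with 7.38 and 12.6 FPKM against 3.05 to 4.49 early and 0.187 to 0.740 late (difference 1.86, SE 0.22). For none of these 8 genes did the change in T209 pass the threshold against the mean of the other 3 lines.

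The change in T209 was then compared with the change in the other 3 lines, in a model of the 32 early and late libraries with 41783 genes tested. Few genes passed the test of the difference in change. The change of 456 genes (1.09%) was more to the early side and that of 1060 genes (2.54%) more to the late side in T209 than in the mean of T147, T191 and T210, at an adjusted p under 0.05. With the libraries rescaled, these counts were 545 and 453, so the share on the early side went from 30.1% to 54.6%, and the excess on the late side was not kept. The median difference in change over all genes went from -0.148 to 0.036, a shift of 0.184. Taken one line at a time, 545 and 1059 genes differed from T147, 206 and 176 from T191, and 829 and 2173 from T210. T209 thus had the fewest differences from T191. Comparisons with the 3 lines share the libraries of T209.

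Of the 7227 genes higher early in T209, 3986 were called higher early in all 3 other lines, 700 in none, and 54 were called in the opposite direction in at least 1. Of the 9197 genes lower early, 2664 were called in all 3, 1724 in none, and 104 in the opposite direction in at least 1. Within the model of 4 lines, T209 had 7893 genes (18.9%) higher early and 10391 (24.9%) lower, T147 10216 (24.5%) and 7398 (17.7%), T191 8397 (20.1%) and 9589 (22.9%), and T210 8587 (20.6%) and 5199 (12.4%). After rescaling, the counts in T209 were 9181 and 9039.

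Of the list members, few passed the test against the other lines. The gz27 row was the only list member whose change in T209 differed from the mean of the other lines (-4.16, SE 0.94, adjusted p = 0.00981), and it passed the threshold against T210 (adjusted p = 3.93e-07) but not against T147 (0.708). The median change of the alpha zeins was 8.82 in T209, 7.37 in T147, 7.93 in T191 and 7.32 in T210, and that of the starch genes tested in the 4 lines was 3.05, 2.65, 2.85 and 2.00.

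A stricter view is given by genes that passed the threshold against each of the 3 lines. There were 161, of which 53 (0.127%) were more to the early side in T209 and 108 (0.258%) more to the late side, and with rescaled libraries 57 and 53. Of the 161, 106 were assembled loci without a gene name. Among the 108, 102 were also called lower early in T209 alone, and for 75 no other line passed the threshold for its own change. In 49 of the 108, all 30 libraries of the other lines were under 1 FPKM while the late mean of T209 was at least 1. These 49 genes passed the filter on low values only through T209, so their count is no separate support for a difference between lines. Among the 53, 27 were higher early in T209, and in the other 26 T209 had no change past the threshold while the 3 other lines were all lower early. In 23 of the 53, all 8 libraries of T209 were under 1 FPKM, so these passed the filter only through the other lines.

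**Figure D4:**
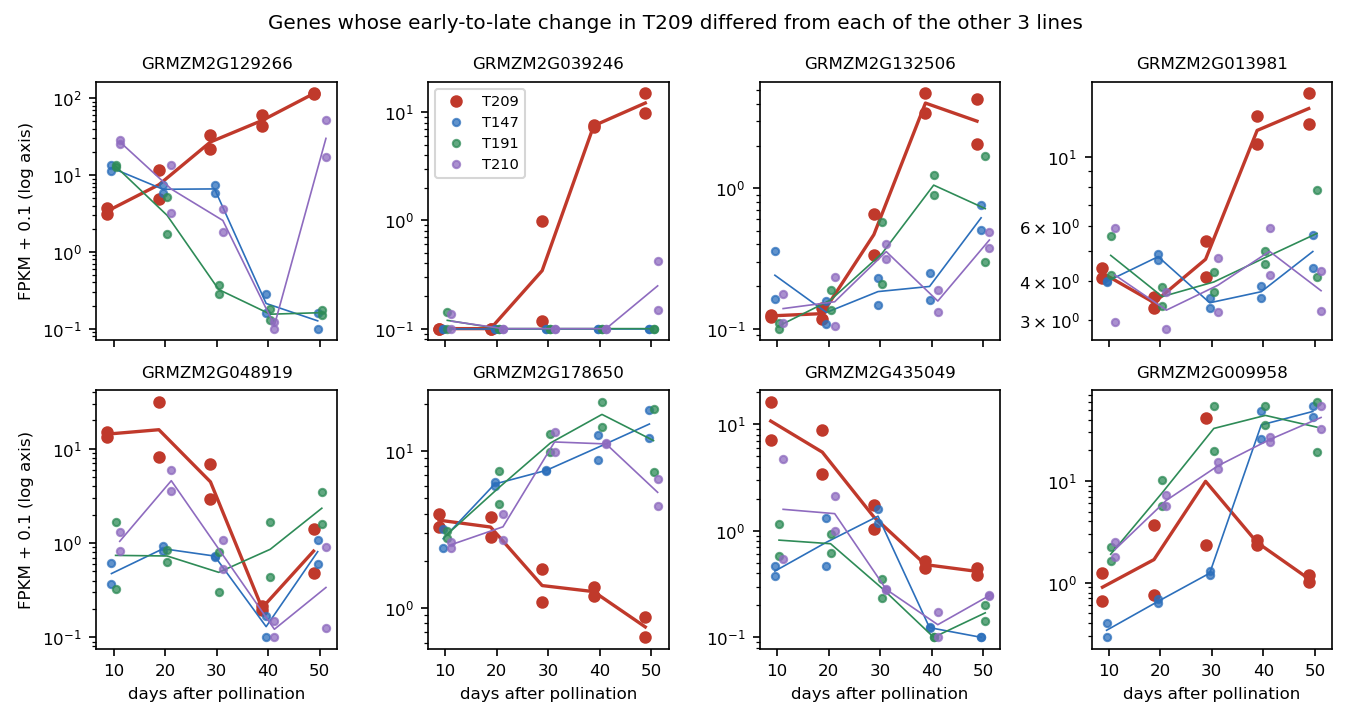
FPKM (plus 0.1, log axis) of 8 genes whose change in T209 differed from each of the other 3 lines, against days after pollination, with a colour for each line and a point for each ear. GRMZM2G039246 was listed at 0 early and at 7.23 to 14.9 FPKM late in T209 alone, and GRMZM2G009958 stayed at 2.52 FPKM or less in the late libraries of T209 while the other lines reached 19 FPKM or more.

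The reference table gives no product for most of the genes that differed, so they are named without a role. GRMZM2G129266 had 3.03, 3.59, 4.74 and 11.5 FPKM early in T209, 21.6 and 33.5 at 30 DAP, and 60.8, 43.4, 116 and 114 late. It rose in T209 by 3.69 on the log2 scale from early to late and fell in T147 and T191, where late values were 0 to 0.184 and 0.0313 to 0.081 FPKM after early values of 5.73 to 13.5 and 1.63 to 13.3. In T210 it had 3.06 to 28.8 FPKM early, 1.70 and 3.56 at 30 DAP, 0.0217 and 0 at 40 DAP, and 52.1 and 17.3 at 50 DAP. A high level at 50 DAP was thus not particular to T209. The difference in change was -6.16 (SE 0.96, adjusted p = 0.000284) against the mean of the 3 lines. GRMZM2G039246 was listed at 0 in the 4 early libraries of T209, at 0.0186 and 0.896 FPKM at 30 DAP and at 7.23, 7.58, 9.79 and 14.9 late. It did not exceed 0.317 FPKM in any library of the other lines, so it passed the filter only through T209. Its difference in change was -3.36 on the log2(FPKM + 1) scale (SE 0.16, adjusted p = 6.12e-14).

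GRMZM2G132506 had 0.0164 to 0.0405 FPKM early and 1.98 to 4.67 late in T209, against late values of at most 0.657 in T147, 1.61 in T191 and 0.392 in T210 (-1.69, SE 0.22, adjusted p = 4.37e-05). GRMZM2G013981 started at the same level in all lines, 3.19 to 4.32 FPKM early in T209 and 2.72 to 5.84 in the others, but only in T209 did it rise past the threshold, to 10.8, 13.3, 12.6 and 15.9 FPKM late (-1.43, SE 0.25, adjusted p = 0.00088). GRMZM2G019200 was held in T209, with 13 to 21.3 FPKM early and 13.3 to 18.8 late, while it fell in the 3 other lines to between 1.87 and 7.27 FPKM (-1.55, SE 0.31, adjusted p = 0.00355). GRMZM2G100419 (LAZ1-4) had 5.52 to 9.74 FPKM early and 7.39 to 16.8 late in T209 and at most 7.69 late elsewhere (-1.42, SE 0.26, adjusted p = 0.00166). The other genes named on the late side were GRMZM2G465053 (-1.71), GRMZM2G161295 (-1.53), GRMZM2G010884 (-1.30) and OFP33 (GRMZM2G137869), of the ovate family (-1.15). Of these, GRMZM2G465053, GRMZM2G010884 and OFP33 stayed under 1 FPKM in all 30 libraries of the other lines. They passed the filter on low values only through T209, so they are no separate support for a difference between lines.

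On the early side, GRMZM2G048919 had 13.3, 15.1, 7.99 and 31.3 FPKM early in T209 and 0.0969 to 1.30 late, whereas its early values were 0.264 to 0.827 in T147, 0.224 to 1.59 in T191 and 0.723 to 5.79 in T210 (3.13, SE 0.46, adjusted p = 0.000148). Its early libraries of T209 were all above those of the other lines. GRMZM2G178650 turned in direction. It fell in T209 from 2.74 to 3.90 FPKM early to 0.548 to 1.25 late, and rose in T147 to 8.65 to 18.1, in T191 to 7.22 to 20.5 and in T210 to 4.38 to 11.1 (2.59, SE 0.37, adjusted p = 9.08e-05). GRMZM2G435049 had 3.32 to 16.1 FPKM early in T209 and 0.288 to 0.423 late (1.84, SE 0.36, adjusted p = 0.00282). The gene also fell in T147, T191 and T210, with 0.277 to 4.59 FPKM early and 0 to 0.147 late over these lines. The log2(FPKM + 1) scale understates changes at such low values, so a different relative change in T209 was not shown. GRMZM2G026050 had 1.77 to 3.28 FPKM early in T209 and 0.505 to 0.692 late (1.14, SE 0.21, adjusted p = 0.0018). Neither of these genes kept its call against the mean of the other lines with a pseudocount of 0.1.

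The other genes on the early side were late genes of the other lines. GRMZM2G009958 had 0.559 to 3.63 FPKM early and 0.913 to 2.52 late in T209, against late values of 25.9 to 54.8 in T147, 19 to 59.5 in T191 and 23.9 to 54.4 in T210 (3.38, SE 0.50, adjusted p = 0.000157). One ear of T209 at 30 DAP had 41.5 FPKM of this gene and the other 2.26. GRMZM2G112951 did not exceed 0.0209 FPKM in the 8 libraries of T209, while late values were 4.01 to 12.8 in the other lines (2.5, SE 0.38, adjusted p = 0.000203), and again the first ear at 30 DAP had 3.33 FPKM and the second 0. GRMZM2G033179 was listed at 0 in the 8 libraries and at 2.03 and 0 FPKM at 30 DAP (1.12, SE 0.19, adjusted p = 0.000592). The first ear of T209 at 30 DAP thus held transcripts of 3 genes that were low or at 0 in the rest of the line. The gz27 row was also high in this ear, with 542 FPKM against 4.47 in the second. This ear entered no test, but it was 1 of the 2 ears used to place changes at 30 DAP and for the heat shock count. GRMZM5G850922 (3.42, SE 0.62, adjusted p = 0.0015) and GRMZM2G005886 (1.45, SE 0.26, adjusted p = 0.00136) were under 1 FPKM in all libraries of T209.

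The time of the change was the last aspect compared. For each gene that changed by at least 1, the level at 30 DAP was placed between the late mean (0) and the early mean (1) on the log2(FPKM + 1) scale. Over the 5566 genes higher early in T209 the median place was 0.423, and over the 6673 genes lower early it was 0.575. At 30 DAP, 7.64% of the first and 10.6% of the second were beyond the late mean, and 10.8% and 8.81% were beyond the early mean. With a pseudocount of 0.1 the medians over genes higher and lower early in T209 were 0.516 and 0.505. The lines were compared over genes called in T209 that changed by at least 1 in the same direction in all 4 lines. These were 3167 genes higher early and 2113 genes lower early. Over the genes higher early the median place was 0.396 in T209 (0.313 and 0.462 in its ears), 0.729 in T147, 0.305 in T191 and 0.652 in T210. Over the genes lower early it was 0.357 in T209, 0.695 in T147, 0.405 in T191 and 0.535 in T210. Over these shared genes, T209 and T191 were thus nearer to late filling at 30 DAP and T147 and T210 nearer to early filling, in both directions. Over all 6673 genes lower early in T209, by contrast, its median of 0.575 was nearer to early filling. The order of T209 and T191 differed between the directions. With rescaled libraries the medians over genes higher early were 0.419, 0.779, 0.326 and 0.640 in the same order of lines. These values are a description, and no test of the lines at 30 DAP was made. The lines were compared with a pseudocount of 1 only.

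**Figure D5:**
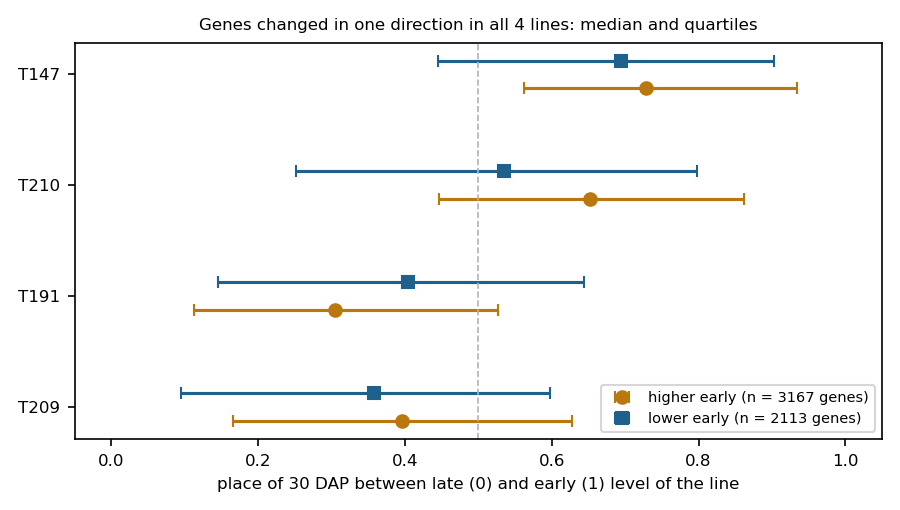
Place of 30 DAP between the late mean (0) and the early mean (1) in the 4 lines, with points at the median and bars from the lower to the upper quartile over genes, for 3167 genes higher early and 2113 genes lower early in all 4 lines. The medians of T209 (0.396 and 0.357) and T191 (0.305 and 0.405) lie below the middle, and those of T147 (0.729 and 0.695) and T210 (0.652 and 0.535) above it.

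The gene lists did not all follow these medians. The median place of 7 alpha zein profiles was 0.567 in T209, 1.07 in T147, 0.300 in T191 and 0.928 in T210. It was 0.735, 0.908, 0.476 and 1.01 in the same order of lines for 4 beta, gamma and delta zeins and 0.554, 0.899, 0.312 and 0.845 for 4 endosperm transcription factors. These lists were thus nearer to early filling in T209 and nearer to late filling in T191. For 12 starch genes it was 0.376, 0.793, 0.327 and 0.880 in the same order, for 3 sucrose genes 0.302, 0.793, 0.299 and 0.787, and for 5 of the candidates of the study 0.182, 0.801, 0.279 and 0.778. For 13 genes of the transfer layer and embryo-surrounding region it was 0.298, 0.606, 0.349 and 0.325. The 6 embryo maturation genes that were lower early were near the late mean in each line, at 0.193, 0.282, 0.214 and 0.235.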

How the data were processed

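Kernels of 4 inbred lines at 5 times were sequenced by the authors from TruSeq libraries, with 2 ears each. The authors deposited FPKM, calculated from read counts and gene length, as 1 table. The submitters' processing notes name Bowtie 0.12.2, Cuffdiff and B73 RefGen_v3. Besides named genes there are loci assembled from the reads, and 2612 rows are identical to another row, so reads may be shared between rows. Column totals are not depths. No interval can be given because read numbers are unknown.

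Here, log2(FPKM + 1) was fitted with limma 3.58.1 in R 4.3.3 (empirical Bayes, trend on the mean). One model held the 8 libraries of T209 and one the 32 early and late libraries of the 4 lines with the line by phase contrast, each for genes with at least 1 FPKM in 2 libraries. Both fits were tested on simulated data. The fit of T209 missed all of the smallest planted changes, and the contrast with the other lines missed most of them. In that contrast, false calls were more frequent than the threshold of 0.05 allows. Replicate numbers did not enter the fit. Alternatives were a pseudocount of 0.1, no or a stricter filter (4 libraries), rescaled libraries, a mean per line and DAP, a replicate block, all 40 libraries, each library left out, and, chosen after seeing the data, 10 or 50 DAP left out and identical rows counted once.

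Named genes were the 10 largest differences in each direction with an adjusted p under 0.05, no overlap and a symbol in the RefSeq gene table (assembly Zm-B73-REFERENCE-NAM-5.0, names only); genes matched to that table that differed from each other line (all 9 on the early side and the 10 largest of 15 on the late side); list members; and the study's 8 candidates. The rule asked for a described product, which the table lacks. Row names were looked up in their exact spelling, so a gene that the table spells otherwise, such as DHN1, counted as without a symbol. Lists were compiled from symbols, and the members and lists were chosen with earlier results of these data known. Symbols may match more than 1 row, and genes under the filter were counted but not tested.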

Additional observations from a re-analysis of the deposited data

Results flagged for a closer look

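Among the 80 genes looked at in T209, 7 of 160 groups of 4 libraries had a library set apart from the other 3, where chance gives about 1 in 20. The zein genes GRMZM2G100018 (dzs18) and GRMZM2G138689 (gz50) were low at 50 DAP replicate 1, with 0.0477 FPKM against 1.49, 1.70 and 1.93, and 1.27 FPKM against 11.4, 13.7 and 15.3. At 50 DAP replicate 2, GRMZM2G348551 (sugary2) had 0.280 FPKM against 0.126 to 0.149, and GRMZM2G048353 (esr6) 0.171 against 0. At 40 DAP, SH-1 had 9.61 FPKM in replicate 2 against 4.70 to 5.25, and GRMZM2G098420 (atg5) 17.9 in replicate 1 against 20.9 to 21.5. At 20 DAP replicate 2, GRMZM2G026980 (xet1) had 32.6 FPKM against 4.33 to 4.96 in the other early libraries.

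The change from early to late filling in T209 differed from the mean change of the other 3 lines on the early side in 456 genes and on the late side in 1060, by the line by phase contrast. Among the named genes, the difference in change was on the late side for GRMZM2G129266 (-6.16), GRMZM2G138727 (gz27, -4.16), GRMZM2G039246 (-3.36), GRMZM2G465053 (-1.71), GRMZM2G132506 (-1.69), GRMZM2G019200 (-1.55), GRMZM2G161295 (-1.53), GRMZM2G013981 (-1.43), GRMZM2G100419 (-1.42), GRMZM2G010884 (-1.30) and GRMZM2G137869 (-1.15). It was on the early side for GRMZM5G850922 (3.42), GRMZM2G009958 (3.38), GRMZM2G048919 (3.13), GRMZM2G178650 (2.59), GRMZM2G112951 (2.5), GRMZM2G435049 (1.84), GRMZM2G005886 (1.45), GRMZM2G026050 (1.14) and GRMZM2G033179 (1.12). On the late side, GRMZM2G039246, GRMZM2G465053, GRMZM2G010884 and GRMZM2G137869 passed the filter on low values only through T209.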

How the results depend on the processing

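In T209, genes higher early numbered 4626 without 10 DAP and 5739 to 8101 without single libraries, and genes lower early 7740 to 8768 without single libraries. Against the mean of the other lines, the early side had 1761 genes with a mean per line and DAP and 304 to 570 without single libraries. The late side had 662 with a pseudocount of 0.1, 453 with rescaled libraries, 3808 with a mean per line and DAP and 607 to 1248 without single libraries of the 4 lines, of which T209 20 DAP replicate 1 (662), 20 DAP replicate 2 (607) and 50 DAP replicate 2 (624) moved it most. Genes that differed from each line numbered 106 with the stricter filter, 460 with a mean per line and DAP and 104 to 174 without single libraries, with 104 without T209 10 DAP replicate 2 and 107 without 50 DAP replicate 2. The members changed as well. Of the 161, 80 (49.7%) were kept with a pseudocount of 0.1 and 98 (60.9%) with rescaled libraries. Without single libraries 59.6% (T209 50 DAP replicate 2 left out) to 92.5% were kept. Of the calls against the mean, 60.6% were kept with a pseudocount of 0.1 and 57.7% with rescaled libraries. The median place of 30 DAP over genes higher early was 0.516 with a pseudocount of 0.1, 0.469 with rescaled libraries and 0.468 at a difference of at least 2. Without single libraries it was 0.337 (30 DAP replicate 2 left out) to 0.491 (30 DAP replicate 1 left out). Over genes lower early it was 0.505 with a pseudocount of 0.1, 0.509 with rescaled libraries, 0.476 at a difference of at least 2 and 0.538 to 0.620 without single libraries. The cause of these moves was not tested.

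The ear numbers do not pair the libraries, since deviations of same-numbered ears had correlations of -0.198 to 0.081. With the replicate block, 6783 genes were higher and 8537 lower early, 426 and 975 differed from the mean, and 148 from each line. With it 3 of 80 named changes in T209 missed the threshold (OLE16, OBAP2B, HSP18). No named value reversed. A pseudocount of 0.1 ended the call against the mean of the other lines for 5 of 20 named genes (GRMZM2G465053, GRMZM2G010884, GRMZM2G435049, GRMZM2G005886, GRMZM2G026050). Read numbers are unknown, so values under 1 FPKM are the least certain.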
